A study of Mus musculus with 12 samples.

Results

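The genes described here are 47 genes of mitosis, taken by symbol from a fixed list of mitotic cyclins and kinases, spindle checkpoint proteins, centromere and kinetochore proteins, condensin subunits, mitotic kinesins, spindle-associated proteins and cytokinesis proteins. All 47 were among the 30263 genes of the colon tables. The libraries came from total colons of C57BL/6 mice labelled S1PR4 KO, against mice of the same strain labelled WT, with 3 libraries in each group. S1PR4 is a receptor for the lipid sphingosine 1-phosphate that is found mainly on immune cells. Mice of both groups had received azoxymethane (AOM, a carcinogen, 10 mg/kg, day 0) and dextran sulfate sodium in the drinking water (DSS, 0.5%, which injures the colon lining) on days 1 to 6, 21 to 27 and 47 to 52, and colons were taken at day 84. Whether the receptor was lost in all cells or in some was not stated, nor whether each library came from its own animal, and the p-values speak only of the spread among these 6 libraries. CD8+ T cells sorted from PyMT mammary tumors of mice labelled S1PR4 KO and WT made up the other libraries of the series, and their tables list 357 genes, of which 0 are mitotic genes of this list.

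Mitosis begins when cyclin B activates the kinase Cdk1, and it proceeds through chromosome condensation, attachment of kinetochores to spindle microtubules and a checkpoint that waits until attachment is complete. The anaphase-promoting complex then marks cyclin B and the inhibitor of separase for destruction, sister chromatids part, and an actomyosin ring divides the cell. Most of these genes are transcribed late in the cell cycle, and in the colon dividing cells lie in the lower part of the crypts and in tumors.

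The libraries carried a check of their labels in S1pr4 itself, which had 154, 162 and 118 counts in KO 1, KO 2 and KO 3, against 61, 47 and 25 in WT 1, WT 2 and WT 3. S1pr4 was thus counted higher in the libraries labelled KO. The part of the gene that the reads cover cannot be read from gene counts. Each direction below follows the labels and would be reversed if the labels were exchanged, which was not tested. The libraries also differed in sex-linked genes across the genotype labels. Xist had 7, 4471 and 3779 counts in the KO libraries and 4609, 8 and 54 in the WT libraries, so KO 2, KO 3 and WT 1 were Xist-high. The summed Y-linked genes had 2378, 4 and 0 counts in the KO libraries and 2, 1984 and 2198 in the WT libraries, so KO 1, WT 2 and WT 3 were Y-linked. Total counts ran from 7304082 to 7919107 in KO and from 7492925 to 8652561 in WT. The mitotic genes took 0.301%, 0.364% and 0.386% of the counts of the KO libraries, against 0.262%, 0.305% and 0.281% in the WT libraries, and the lowest count of any of them in a library was 77.

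Many promoters of such genes hold the letters TTTGAA, the cell cycle homology region (CHR), and CCAAT, the box bound by the factor NF-Y. RefSeq promoter windows on GRCm38.p6, from 250 bases before to 50 bases after a start, were at hand for 40 of the 47 genes, as 42 windows. TTTGAA on either strand stood in 33 of the 42 windows (78.6%), against 17.9% of all 32851 windows. CCAAT on either strand stood in 31 (73.8%), against 37.4% of all windows. Both motifs stood in 66.7%, against 6.95% of all windows, and matches of the motifs overlapped each other in 1 of the 42 windows and in 47 of all windows. A match is a description of letters and does not show that a factor binds there. The stretches of 120 bases just before the RefSeq start are given for Espl1 (chr15:102296173-102296292, plus strand), Kif15 (chr9:122950961-122951080, plus strand), Kif11 (chr19:37376262-37376381, plus strand) and Top2a (chr11:99024190-99024309, minus strand), whose KO and WT libraries did not overlap in the results below. Cdc20 (chr4:118437344-118437463, minus strand) and Cdk1 (chr10:69352913-69353032, minus strand), whose libraries did overlap, are set beside them. Capitals mark TTTGAA or CCAAT, or their reverse complements TTCAAA and ATTGG.
Espl1: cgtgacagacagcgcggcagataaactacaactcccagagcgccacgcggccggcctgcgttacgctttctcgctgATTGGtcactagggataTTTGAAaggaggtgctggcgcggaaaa
Kif15: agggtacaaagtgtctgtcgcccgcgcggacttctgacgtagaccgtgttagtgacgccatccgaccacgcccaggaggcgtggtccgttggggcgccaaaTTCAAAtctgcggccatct
Kif11: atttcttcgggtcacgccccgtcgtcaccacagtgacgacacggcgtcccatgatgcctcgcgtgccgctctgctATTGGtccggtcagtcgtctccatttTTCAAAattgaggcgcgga
Top2a: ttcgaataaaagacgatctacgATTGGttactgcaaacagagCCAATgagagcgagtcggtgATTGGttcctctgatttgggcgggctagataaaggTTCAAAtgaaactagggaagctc
Cdc20: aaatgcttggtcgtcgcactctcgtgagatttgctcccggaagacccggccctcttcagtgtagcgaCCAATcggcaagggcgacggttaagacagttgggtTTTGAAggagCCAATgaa
Cdk1: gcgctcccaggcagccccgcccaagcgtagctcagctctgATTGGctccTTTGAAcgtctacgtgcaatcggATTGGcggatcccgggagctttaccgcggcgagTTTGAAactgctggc

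Every one of the 47 mitotic genes had a fitted level above WT in the libraries labelled KO, by small amounts, and none passed the test. The log2 difference of KO over WT ran from 0.09 to 0.61 with a median of 0.28, and 49.0% of all 17195 tested genes had a difference above 0, with a median of -0.005. All 47 had passed the filter on low counts. The edgeR quasi-likelihood test called 0 of the 47, and 0 of all tested genes (0.0%), after Benjamini-Hochberg adjustment over all tested genes, with adjusted p between 0.829 and 0.914 for the 47. At an unadjusted p under 0.05, 14 of the 47 were higher and 0 lower, where 2.62% of all tested genes were higher and 870 (5.06%) passed in either direction. DESeq2 also called 0 of the 47 (lowest adjusted p = 0.248) and 18 genes in all (0.105%), with 15 of the 47 higher at an unadjusted p under 0.05, where 3.08% of all genes were. Limma-voom with quality weights called 0 of the 47 (lowest adjusted p = 0.0951) and 0 in all (0.0%), with 33 of the 47 higher at an unadjusted p under 0.05, where 11.9% of all genes were. In place of 14, the count was 34 without KO 1 (where 8.9% of all genes were higher at that p), 7 without KO 2 (1.3%), 6 without KO 3 (1.35%), 5 without WT 1 (3.56%), 11 without WT 2 (1.42%) and 6 without WT 3 (1.06%), with 47 of 47 above 0 and 0 called each time. In bulk colon RNA, more dividing cells and more of these transcripts per dividing cell cannot be told apart.

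The KO libraries were unlike each other in these genes. The summed level of the 47 genes was 3043, 3549 and 3837 CPM (counts scaled to a common library size) in KO 1, KO 2 and KO 3, against 2679, 3055 and 2855 CPM in WT 1, WT 2 and WT 3. KO 2 and KO 3 lay above every WT library, and KO 1 lay between WT 3 and WT 2. The means were 3476 ± 402 CPM in KO and 2863 ± 188 CPM in WT (SD, n = 3 each). As the mean deviation over the 47 genes from each gene's own mean, the libraries stood at -0.08, 0.22 and 0.32 (log2) in KO, against -0.26, -0.03 and -0.16 in WT. Gene by gene, KO 3 was the highest library for 31 genes and KO 2 for 15, and KO 1 was the highest for Mki67 alone. WT 1 was the lowest library for 29 genes and WT 3 for 14, while WT 2 was lowest for 2 and KO 1 for the other 2.

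**Figure D1:**
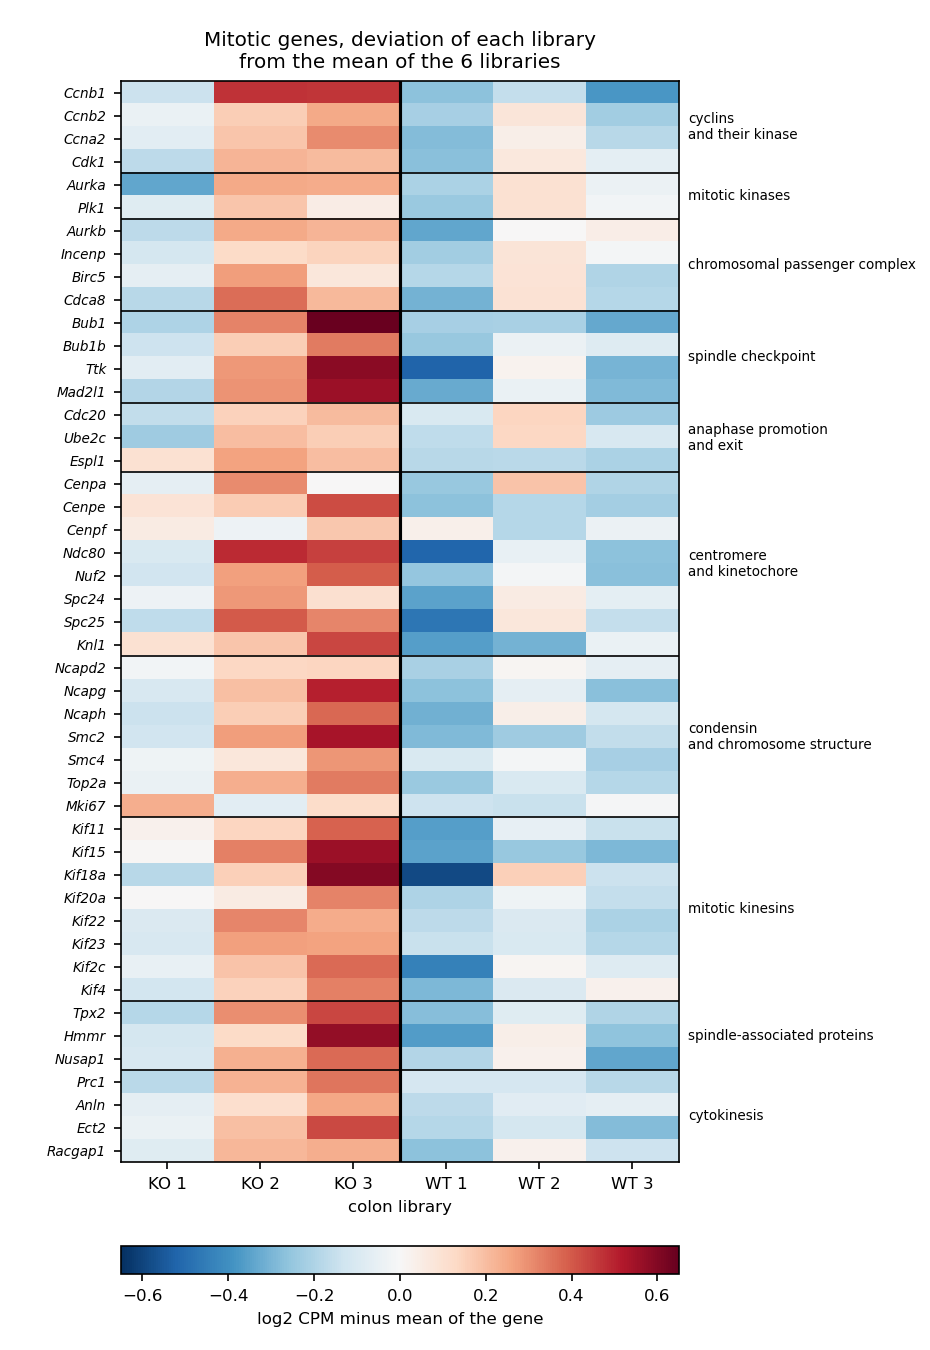
Each cell is the log2 CPM of a mitotic gene in a library minus the mean of that gene over the 6 libraries, with genes in rows grouped by role and the KO libraries left of the WT libraries. KO 2 and KO 3 are red in most rows, WT 1 is blue in nearly all, and KO 1 is close to the middle of the scale.

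KO 2 and KO 3 were both above every WT library for 41 of the 47 genes, where 20.5% of all tested genes were. KO 1 was above every WT library for 13 genes, where 21.4% of all tested genes were. It lay within the WT range for 32 genes and below every WT library for Aurka and Ube2c. All 3 KO libraries were above all 3 WT libraries for 11 of the 47 genes, where 4.55% of all tested genes were. These were Ccnb1, Bub1, Espl1, Cenpe, Knl1, Smc2, Top2a, Kif11, Kif15, Kif20a and Ect2. Of the 10 of them that had a promoter window, 7 held TTTGAA and 8 held CCAAT. The counts were 24 and 21 of 30 for the genes whose groups overlapped.

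**Figure D2:**
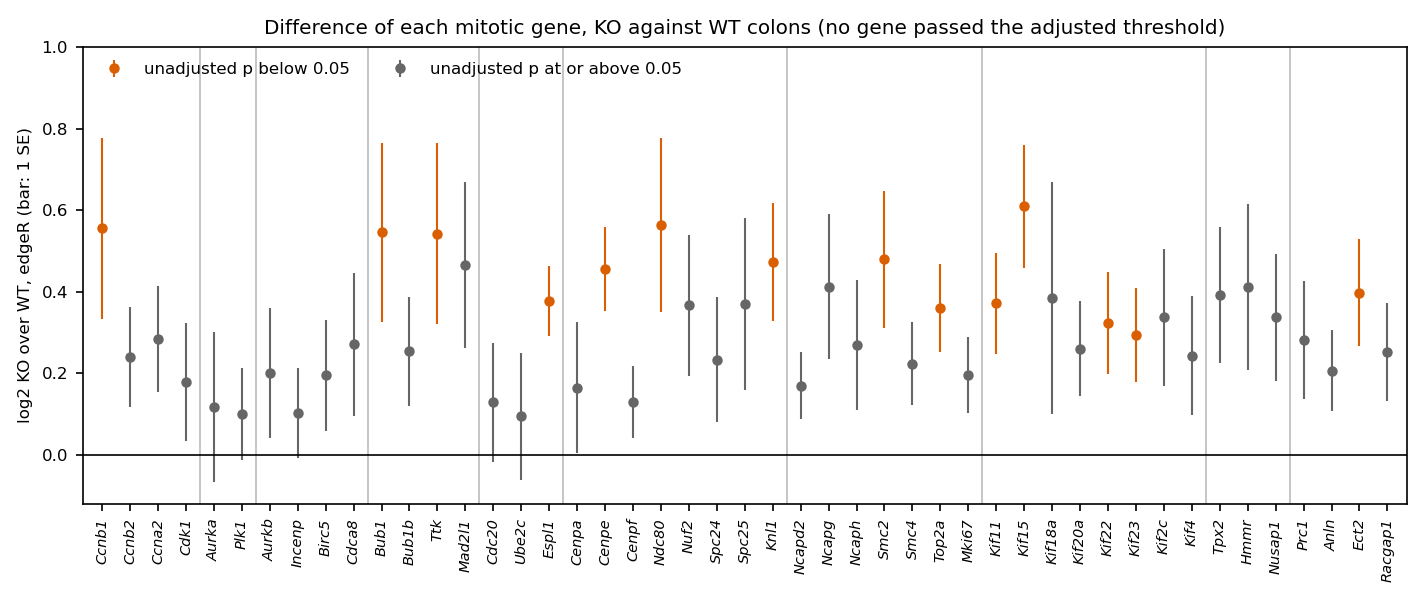
Points are the fitted log2 difference of KO over WT for each of the 47 genes, ordered by role, with bars of 1 standard error, and orange marks an unadjusted p under 0.05. Every point is above 0, between 0.09 and 0.61, and no gene passed the adjusted threshold.

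Among the cyclins and their kinase, Ccnb1 stood out from Ccnb2, Ccna2 and Cdk1 by the size of its difference. The B cyclins activate Cdk1 at entry into mitosis, and cyclin A2, from Ccna2, acts in S and G2 phase. Ccnb1 (ENSMUSG00000041431, GRCm38 chr13:100778650-100786570, minus strand) had 11.4, 17.3 and 17.3 CPM in KO 1, KO 2 and KO 3, against 10.4, 11.2 and 9.63 CPM in WT 1, WT 2 and WT 3. The groups did not overlap, and KO 1 was just above WT 2. Its log2 difference was 0.56 ± 0.22 (SE; edgeR adjusted p = 0.829). Processed pseudogenes nearly identical to Ccnb1 over 1287 bases or more (Ccnb1-ps at 99.2%, Gm12856 at 98.1%, Gm8416 at 97.3%) were counted too, and reads may be split between them. Summed with those copies, Ccnb1 averaged 20.7 ± 4.38 CPM in KO and 14.7 ± 0.682 CPM in WT (SD, n = 3 each), a log2 ratio of 0.49. Ccnb2 (ENSMUSG00000032218, chr9:70407692-70421547, minus strand) had 64.1, 73.7 and 78.2 CPM in KO, against 56.8, 69.7 and 56.4 CPM in WT. KO 1 was below WT 2, so the groups overlapped, and the log2 difference was 0.24 ± 0.12 (SE; edgeR adjusted p = 0.829). Ccnb2 had the highest level per exon length of these 4 genes, 43.4 CPM per kilobase. Ccna2 and Cdk1 had log2 differences of 0.28 ± 0.13 and 0.18 ± 0.15 (SE), with overlapping groups.

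The spindle kinases Plk1 and Aurka had differences smaller than or close to their standard errors. Plk1, which matures centrosomes and acts up to cytokinesis, lies on chr7:122159439-122169873, plus strand (ENSMUSG00000030867), and had the highest level per exon length of all 47 genes, 46.2 CPM per kilobase. It had 95.9, 115 and 105 CPM in KO, against 85.8, 109 and 100.2 CPM in WT. KO 1 was below WT 2 and WT 3, and the log2 difference was 0.10 ± 0.11 (SE; edgeR adjusted p = 0.880). Aurka, the Aurora kinase of the spindle poles, had 39.1, 58.6 and 58.4 CPM in KO, against 42.8, 53.0 and 48.1 CPM in WT. KO 1 was thus the lowest and KO 2 the highest of the 6 libraries, and the log2 difference was 0.12 ± 0.18 (SE; edgeR adjusted p = 0.908).

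The chromosomal passenger complex corrects faulty attachments of chromosomes to the spindle. Its kinase Aurkb, its scaffold Incenp and its centromere-targeting subunits Birc5 (survivin) and Cdca8 (borealin) had a median log2 difference of 0.20, and 0 of the 4 had an unadjusted p under 0.05. Incenp (ENSMUSG00000024660, chr19:9872296-9899551, minus strand) had 92.6, 109 and 111 CPM in KO, against 85.8, 106 and 99.2 CPM in WT. The groups overlapped, with KO 1 below WT 2 and WT 3, and the log2 difference was 0.10 ± 0.11 (SE; edgeR adjusted p = 0.875). Cdca8 (ENSMUSG00000028873, chr4:124918465-124939311, minus strand) had 46.9, 68.2 and 61.4 CPM in KO, against 42.9, 56.7 and 46.6 CPM in WT. KO 1 was again inside the WT range, and the log2 difference was 0.27 ± 0.18 (SE; edgeR adjusted p = 0.829). Aurkb and Birc5 had log2 differences of 0.20 ± 0.16 and 0.19 ± 0.14 (SE).

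The spindle checkpoint genes had the highest median log2 difference of the 10 role groups, 0.50, with 2 of 4 at an unadjusted p under 0.05. At that p, 2.62% of all tested genes were higher in KO. The checkpoint holds back anaphase while kinetochores are unattached. Bub1 (ENSMUSG00000027379, chr2:127801122-127831865, minus strand), a kinase that recruits checkpoint proteins to kinetochores, had 26.9, 38.8 and 48.3 CPM in KO, against 26.7, 26.7 and 24.6 CPM in WT. The groups did not overlap, but KO 1 was within a fraction of a CPM of WT 1 and WT 2, and the WT libraries varied little. The log2 difference was 0.55 ± 0.22 (SE; edgeR adjusted p = 0.829), and KO averaged 38.0 ± 10.7 CPM against 26.0 ± 1.22 CPM in WT (SD, n = 3 each). Bub1b (ENSMUSG00000040084, chr2:118598211-118641591, plus strand), which encodes BubR1, part of the complex that captures Cdc20, had 73.2, 89.9 and 102 CPM in KO, against 67.9, 78.4 and 75.9 CPM in WT. KO 1 was below WT 2 and WT 3, and the log2 difference was 0.25 ± 0.13 (SE; edgeR adjusted p = 0.829). Ttk, the kinase known as Mps1, and Mad2l1, which encodes Mad2, had log2 differences of 0.54 ± 0.22 and 0.47 ± 0.20 (SE), both with KO 1 inside the WT range. A pseudogene of Mad2l1, Gm42430, is 95.4% identical over 454 bases, and with its counts added the log2 ratio of means was 0.47.

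At the step into anaphase, Espl1 differed from Cdc20 and Ube2c in how its libraries lay. Espl1 (ENSMUSG00000058290, chr15:102296266-102324357, plus strand) encodes separase, the protease that cuts cohesin so that sister chromatids part. It had 50.9, 57.1 and 54.7 CPM in KO, against 42.0, 42.1 and 41.3 CPM in WT. All 3 KO libraries were above all 3 WT libraries, KO 1 included, and both groups were narrow, with means of 54.3 ± 3.13 CPM in KO and 41.8 ± 0.466 CPM in WT (SD, n = 3 each). The log2 difference was 0.38 ± 0.09 (SE; edgeR adjusted p = 0.829; DESeq2 adjusted p = 0.364). Cdc20 (ENSMUSG00000006398, chr4:118432901-118437352, minus strand), the activator of the anaphase-promoting complex, had 46.6, 57.8 and 60.2 CPM in KO, against 48.7, 57.5 and 44.3 CPM in WT. KO 1 was below WT 1 and WT 2, and the log2 difference was 0.13 ± 0.15 (SE; edgeR adjusted p = 0.880). Ube2c, the ubiquitin-conjugating enzyme of that complex, had the smallest log2 difference of the 47 genes, 0.09 ± 0.16 (SE; edgeR adjusted p = 0.914), with KO 1 below every WT library.

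The centromere and kinetochore genes had a median log2 difference of 0.37, with 3 of 8 at an unadjusted p under 0.05. Of all tested genes, 2.62% were higher in KO at that p. Cenpe (ENSMUSG00000045328, chr3:135212537-135273611, plus strand), a kinesin that carries chromosomes towards the spindle equator, had 79.0, 83.3 and 99.8 CPM in KO, against 61.9, 65.4 and 63.9 CPM in WT. The groups were well apart, with means of 87.4 ± 11.0 CPM in KO and 63.7 ± 1.77 CPM in WT (SD, n = 3 each). The log2 difference was 0.46 ± 0.10 (SE; edgeR adjusted p = 0.829; DESeq2 adjusted p = 0.248), the smallest unadjusted p of the 47 genes. Knl1, the scaffold on which Bub1 and BubR1 assemble, had 38.0, 40.2 and 47.9 CPM in KO, against 27.7, 28.8 and 34.5 CPM in WT. These groups did not overlap either, and the log2 difference was 0.47 ± 0.14 (SE; edgeR adjusted p = 0.829). The Ndc80 complex, which binds microtubules directly, has the subunits Ndc80, Nuf2, Spc24 and Spc25, and KO 1 lay inside the WT range for each of them. Spc24 (ENSMUSG00000074476, chr9:21755442-21760303, minus strand) had 30.6, 38.1 and 33.6 CPM in KO, against 24.6, 32.5 and 30.0 CPM in WT, a log2 difference of 0.23 ± 0.15 (SE; edgeR adjusted p = 0.829). Ndc80 itself had 21.1, 31.5 and 30.6 CPM in KO, against 15.7, 21.8 and 18.8 CPM in WT, so KO 1 overlapped the WT libraries while KO 2 and KO 3 did not. Its log2 difference was 0.56 ± 0.21, and those of Nuf2 and Spc25 were 0.37 ± 0.17 and 0.37 ± 0.21 (SE). Cenpa, the histone variant that marks centromeres, and Cenpf, a large coiled-coil protein of the outer kinetochore, had log2 differences of 0.16 ± 0.16 and 0.13 ± 0.09 (SE).

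Among genes of chromosome structure, the highest per exon length were Mki67 and Top2a (30.6 and 22.7 CPM per kilobase), and they ordered the KO libraries differently. Top2a (ENSMUSG00000020914, chr11:98992943-99024189, minus strand), the topoisomerase that disentangles sister chromatids, had 196, 238 and 255 CPM in KO, against 171, 189 and 178 CPM in WT. All KO libraries were above all WT libraries, KO 1 by the least, and the log2 difference was 0.36 ± 0.11 (SE; edgeR adjusted p = 0.829). Mki67 (ENSMUSG00000031004, chr7:135689784-135716361, minus strand), the Ki-67 protein that coats mitotic chromosomes, had 361, 293 and 332 CPM in KO, against 279, 277 and 305 CPM in WT. Here KO 1 was the highest library and KO 2 lay below WT 3, so the groups overlapped, and the log2 difference was 0.20 ± 0.09 (SE; edgeR adjusted p = 0.829). Smc2, a core subunit of the condensins that compact chromosomes, had 73.0, 96.2 and 116 CPM in KO, against 65.3, 67.8 and 71.3 CPM in WT. Its groups did not overlap, with KO 1 just above WT 3, and its log2 difference was 0.48 ± 0.17 (SE; edgeR adjusted p = 0.829). Its partner Smc4 and the condensin I subunits Ncapd2, Ncapg and Ncaph had log2 differences of 0.22 ± 0.10, 0.17 ± 0.08, 0.41 ± 0.18 and 0.27 ± 0.16 (SE), each with KO 1 inside the WT range.

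The mitotic kinesins had a median log2 difference of 0.33, with 4 of 8 at an unadjusted p under 0.05. The share of all tested genes higher in KO at that p was 2.62%. The largest difference of all 47 genes was that of Kif15. Kif15 (ENSMUSG00000036768, chr9:122951046-123018733, plus strand), which helps keep the spindle bipolar, had 43.7, 54.4 and 63.7 CPM in KO, against 34.1, 36.5 and 35.4 CPM in WT. The groups did not overlap, with means of 53.9 ± 10.0 CPM in KO and 35.3 ± 1.22 CPM in WT (SD, n = 3 each), and the log2 difference was 0.61 ± 0.15 (SE; edgeR adjusted p = 0.829; DESeq2 adjusted p = 0.270). Kif11 (ENSMUSG00000012443, chr19:37376403-37421859, plus strand), the Eg5 motor that pushes the spindle poles apart, had 92.0, 99.5 and 118 CPM in KO, against 70.4, 86.9 and 81.6 CPM in WT. These groups did not overlap, KO 1 being above WT 2, and the log2 difference was 0.37 ± 0.12 (SE; edgeR adjusted p = 0.829). Kif20a, a motor of the spindle midzone, also had groups that did not overlap (0.26 ± 0.12, SE, log2), but it shares 29.3% of its exon bases with Cdc23 on the opposite strand, whose own log2 difference was 0.03 ± 0.08 (SE). Kif22 and Kif23, a chromosome-arm motor and a midzone motor, had log2 differences of 0.32 ± 0.13 and 0.29 ± 0.12 (SE). Kif2c, a microtubule depolymerase, and the chromosome-arm motor Kif4 had 0.34 ± 0.17 and 0.24 ± 0.15 (SE, log2), with KO 1 inside the WT range. Kif18a, which damps chromosome movements, had the lowest level per exon length of the 47 genes, 1.55 CPM per kilobase, and the widest standard error, 0.38 ± 0.28 (SE, log2).

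Genes of spindle assembly and cytokinesis had medians of 0.39 and 0.27 (log2). Tpx2 (ENSMUSG00000027469, chr2:152847964-152895321, plus strand), which brings Aurora A to the spindle, had 75.7, 106 and 117 CPM in KO, against 71.0, 81.6 and 75.1 CPM in WT. KO 1 was level with WT 3 and below WT 2, and KO 2 and KO 3 were above every WT library. Its log2 difference was 0.39 ± 0.17 (SE; edgeR adjusted p = 0.829), and those of the microtubule-binding Hmmr and Nusap1 were 0.41 ± 0.20 and 0.34 ± 0.16 (SE). Ect2 (ENSMUSG00000027699, chr3:27097222-27153878, minus strand), the exchange factor that activates RhoA at the division plane, had 73.0, 86.2 and 101 CPM in KO, against 66.4, 69.5 and 62.0 CPM in WT. Its groups did not overlap, and the log2 difference was 0.40 ± 0.13 (SE; edgeR adjusted p = 0.829). Prc1, which bundles midzone microtubules, Anln, a scaffold of the contractile ring, and Racgap1, a partner of Kif23, had log2 differences of 0.28 ± 0.15, 0.21 ± 0.10 and 0.25 ± 0.12 (SE), all with KO 1 inside the WT range.

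Set within libraries of the same sex-linked status, the mitotic genes had a larger median difference in the Xist-high set than in the Y-linked set. With KO 2 and KO 3 against WT 1, 47 of 47 genes were higher in KO, where 50.6% of all tested genes were, with log2 differences from 0.04 to 0.97 and a median of 0.53. With KO 1 against WT 2 and WT 3, 26 of 47 were higher in KO, where 49.5% of all tested genes were, with values from -0.37 to 0.31 and a median of 0.004. Each of these sets has a lone library on one side, so neither has a test. In the Xist-high set it was WT 1, the lowest library in mitotic level, which had 649 CPM of squamous epithelium and skeletal muscle markers. In the Y-linked set it was KO 1, the lowest KO library. KO 2 and KO 3 were above every WT library, the Y-linked ones included, for 41 of the 47 genes, where 20.5% of all tested genes were. Status and single libraries cannot be told apart here. Among the Y-linked libraries, Mki67 (0.31), Espl1 (0.29), Cenpe (0.29), Kif15 (0.28) and Knl1 (0.27) were highest in KO 1 over WT, and Aurka (-0.37), Ube2c (-0.25) and Aurkb (-0.19) were lowest. The interaction of genotype and status, fitted in edgeR with 2 of its 4 cells holding 1 library, was called for 0 of the 47 genes and for 0 of all tested genes (0.0%), where 3341 genes had an unadjusted p under 0.05 in either direction. It was above 0 for 45 of the 47, where 52.9% of all tested genes were, with Mki67 and Cenpf the exceptions. At an unadjusted p under 0.05 it was positive for 23 of the 47, where 6.47% of all genes were, and the lowest adjusted p was 0.168, for Aurkb. With the status as a covariate, all 47 genes had a difference above 0, with a median of 0.25, and 8 had an unadjusted p under 0.05, where 1.45% of all genes did.

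**Figure D3:**
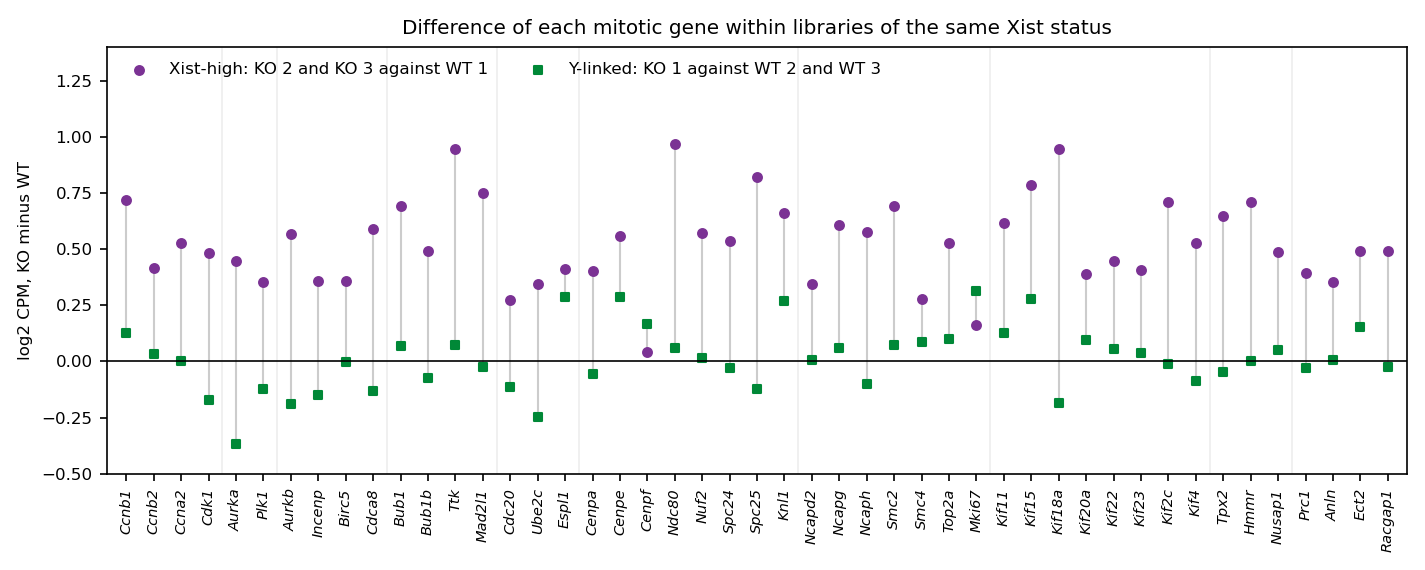
For each mitotic gene, the purple circle is the log2 difference of KO 2 and KO 3 over WT 1 (Xist-high) and the green square that of KO 1 over WT 2 and WT 3 (Y-linked). Circles lie between 0.04 and 0.97 and squares between -0.37 and 0.31, with the square above the circle for Cenpf and Mki67.

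The longer mitotic genes stood higher above WT than the shorter ones, in KO 1 and in the other KO libraries. KO 1 minus the mean of the WT libraries had a median of 0.005 (log2) in the 16 shortest genes (1531 to 4338 bases), 0.06 in the 15 middle ones (4354 to 6341 bases) and 0.12 in the 16 longest (6493 to 15433 bases). All tested genes in the same length ranges had medians of -0.02, 0.002 and 0.05. The mean of KO 2 and KO 3 minus that of WT had medians of 0.32, 0.44 and 0.45 in the mitotic genes, against 0.03, -0.02 and -0.07 in all tested genes. The groups did not overlap for 2 of the 16 shortest, 3 of the 15 middle and 6 of the 16 longest mitotic genes, where 4.24%, 4.91% and 4.98% of all tested genes in those ranges did not. Spearman's rho with exon length, as a description across genes that share the same libraries, was 0.48 for KO 1 minus WT over the 47 genes and 0.15 over 17182 tested genes. For the mean of KO 2 and KO 3 minus WT it was 0.25 over the 47 genes and -0.13 over all tested genes, and for the fitted difference 0.36 and -0.09. Cenpe, Espl1, Knl1, Kif15 and Mki67, the genes in which KO 1 stood farthest above the WT mean, have exons of 8620, 8749, 8542, 11020 and 10061 bases. Other long genes stood nearer the WT mean in KO 1. These were Cenpf (15433 bases, 0.12), Kif18a (9832, 0.01), Anln (9063, 0.04), Top2a (9013, 0.13), Mad2l1 (8390, 0.03) and Prc1 (8225, -0.04, log2). With the trend of each library with exon length taken out, an alternative chosen after seeing the data, 12 of the 47 genes had groups that did not overlap, where 4.81% of all tested genes did not, and the median log2 difference was 0.31.

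**Figure D4:**
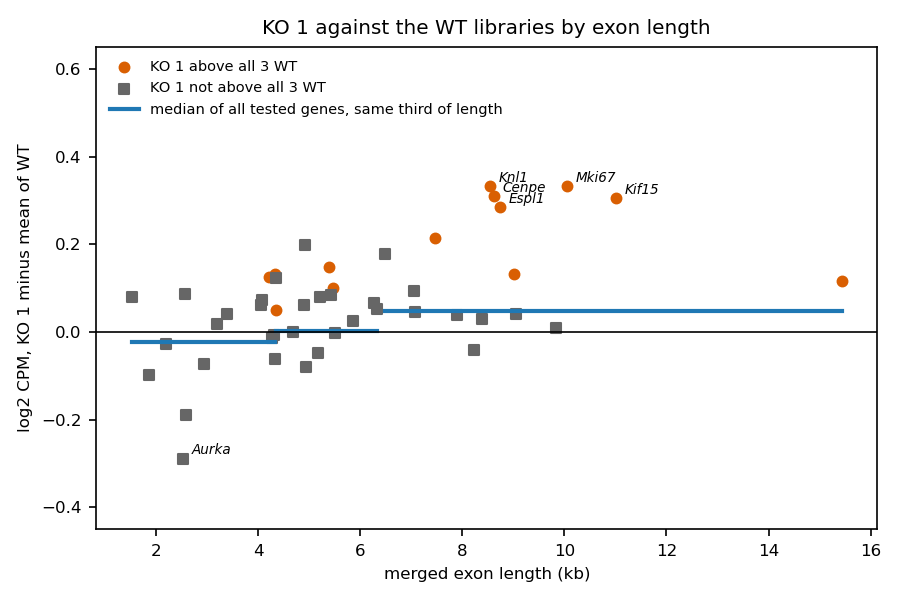
Each point is a mitotic gene, with merged exon length in kilobases on the x axis and log2 CPM of KO 1 minus the mean of the WT libraries on the y axis, orange where KO 1 was above all 3 WT libraries, and lines give medians of all tested genes in the ranges of short, middle and long exons. The points above 0.25 are Knl1, Cenpe, Espl1, Mki67 and Kif15, with exons of 8542 to 11020 bases. Prc1, Mad2l1, Top2a, Anln, Kif18a and Cenpf, with exons of 8225 to 15433 bases, lie below 0.25.

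The order of the libraries in mitotic level, KO 3, KO 2, WT 2, KO 1, WT 3 and WT 1 from high to low, was set beside lists of cell type markers. Colon epithelium markers, 12 in all with 0 at 0 in any library, were present throughout, with a summed level of 2666, 2703 and 2489 CPM in KO, against 2317, 2825 and 2683 CPM in WT, and 8 of 12 higher in KO. Crypt stem cell markers (6 of 7 higher in KO, log2 differences from -0.22 to 2.12) summed to 393, 753 and 1048 CPM in KO, against 526, 423 and 382 CPM in WT. KO 2 and KO 3 led here as they did in mitotic genes, but WT 1, the lowest library in mitotic genes, came next. The 3 Xist-high libraries were thus above the 3 Y-linked ones. The 1 stem cell marker lower in KO had groups that did not overlap. Smooth muscle markers (0 of 10 higher in KO, median -0.24 on the log2 scale) summed to 2333, 1880 and 1241 CPM in KO, against 2627, 1971 and 2259 CPM in WT, with KO 3 lowest and WT 1 highest. Enteric neuron and glia markers (1 of 10 higher in KO) summed to 277, 161 and 128 CPM in KO, against 276, 202 and 258 CPM in WT. Neutrophil markers (5 of 5 tested higher in KO) summed to 14.3, 81.1 and 94.6 CPM in KO, against 47.0, 12.7 and 5.88 CPM in WT, with the 3 Xist-high libraries above the 3 Y-linked ones. Squamous epithelium and skeletal muscle markers, with Krt1 and Tnnt3 at 0 in a library, summed to 44.3, 87.4 and 60.5 CPM in KO, against 649, 67.3 and 73.8 CPM in WT, with WT 1, the lowest library in mitotic genes, far above the rest. Left out of the fit, WT 1 took the median log2 difference of the mitotic genes to 0.24, with 47 of 47 still above 0. Fibroblast markers were higher in KO for 0 of 6, B cell markers for 0 of 6 and T cell markers for 5 of 7 tested. Germinal centre B cell markers were higher for 4 of 5 tested, plasma cell markers for 5 of 5 and macrophage markers for 6 of 6. The germinal centre list summed to 58.6, 59.3 and 74.2 CPM in KO, against 67.0, 55.1 and 54.0 CPM in WT. The labels do not give the share of tumor in each colon. The part of tumor and of these cell types in the mitotic levels was not tested.

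**Figure D5:**
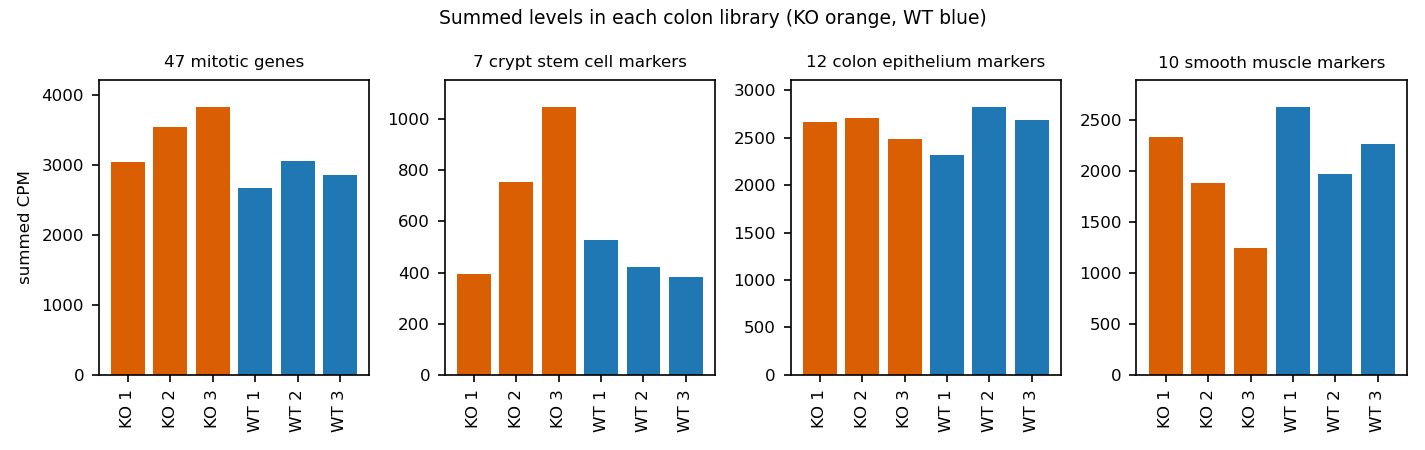
Bars are the summed CPM of the 47 mitotic genes and of the crypt stem cell, colon epithelium and smooth muscle markers in each library, KO in orange and WT in blue, on axes that start at 0. Mitotic genes and stem cell markers are highest in KO 3 and KO 2, and smooth muscle markers are lowest in KO 3 and highest in WT 1.

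Other genes of the same machinery, 117 in 11 lists, were read the same way. The fitted level was higher in KO in 96 of them (median 0.21, log2), where 49.0% of all tested genes were. Without the 20 DNA replication genes it was higher in 76 of 97 (median 0.18). The edgeR test called 0 of the 117 and 0 of all tested genes. At an unadjusted p under 0.05, 18 were higher, where 2.62% of all tested genes were, and 1, Nfya, was lower. Groups did not overlap for 17 genes higher and 5 lower in KO, where 782 and 866 of all 17195 tested genes did so. The constitutive centromere list was higher in KO for 15 of 17 genes with a median of 0.38, and the other kinetochore genes for 11 of 12 with a median of 0.38. Cenpi, a centromere subunit, had 14.7, 22.7 and 23.8 CPM in KO, against 11.6, 12.3 and 9.63 CPM in WT, without overlap (0.87 ± 0.24, SE, log2). Kntc1 and Zwilch, subunits of a complex that brings dynein and checkpoint proteins to kinetochores, belong to the second of these lists. Kntc1 had 43.8, 46.0 and 52.2 CPM in KO, against 25.8, 27.3 and 35.8 CPM in WT (0.68 ± 0.16, SE, log2), and Zwilch had 19.9, 31.6 and 27.1 CPM in KO, against 17.9, 17.8 and 15.5 CPM in WT (0.62 ± 0.20, SE, log2). Neither overlapped.

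Condensin II, which acts early in prophase, had 2 of 3 subunits higher in KO. Ncapg2 had 61.3, 76.2 and 92.3 CPM in KO, against 46.6, 48.7 and 48.4 CPM in WT, without overlap (0.68 ± 0.15, SE, log2; edgeR adjusted p = 0.829; DESeq2 adjusted p = 0.144). Ncapd3 had 70.6, 72.1 and 83.7 CPM in KO, against 61.3, 63.9 and 74.5 CPM in WT, with overlap (0.18 ± 0.11, SE, log2). Ncaph2, named after its values were seen, had 96.9, 107 and 99.9 CPM in KO, against 99.7, 110.3 and 103 CPM in WT, with overlap (-0.04 ± 0.07, SE, log2). The other spindle genes were higher in KO for 10 of 12 (median 0.27), the other cytokinesis genes for 4 of 4 (median 0.17), and the other checkpoint and cohesion-guarding genes for 6 of 7 (median 0.22). Kif20b, a midzone motor, had 54.6, 59.1 and 72.8 CPM in KO, against 42.6, 53.4 and 46.9 CPM in WT, without overlap (0.39 ± 0.14, SE, log2). Spag5, a spindle protein, had 56.3, 64.5 and 65.5 CPM in KO, against 48.5, 56.3 and 52.1 CPM in WT, where KO 1 and WT 2 touched (0.25 ± 0.10, SE, log2). Citron kinase, from Cit, acts late in cytokinesis and had 59.6, 59.8 and 57.3 CPM in KO, against 47.4, 48.3 and 50.4 CPM in WT, without overlap (0.27 ± 0.08, SE, log2). Cep55, which recruits the machinery of final separation, had 28.1, 46.3 and 51.3 CPM in KO, against 30.8, 31.3 and 27.1 CPM in WT, with KO 1 inside the WT range (0.49 ± 0.23, SE, log2). Trip13, which takes apart active Mad2, had 18.4, 30.2 and 27.4 CPM in KO, against 17.4, 19.5 and 19.8 CPM in WT, with overlap (0.42 ± 0.21, SE, log2). Mad2l1bp, its adaptor, had 37.0, 42.7 and 37.0 CPM in KO, against 42.3, 47.1 and 45.3 CPM in WT, with KO 2 just inside the WT range (-0.21 ± 0.11, SE, log2).

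Regulators upstream of mitosis were counted in the same way. The genes listed for transcription of mitotic genes, which are not all activators, were higher in KO for 6 of 13 with a median log2 difference of -0.04. Among them the activators Mybl2 and Foxm1, named after their values were seen, had log2 differences of 0.59 ± 0.28 and 0.13 ± 0.14 (SE). Nfya, a subunit of the factor that binds CCAAT, had 99.2, 100.3 and 109 CPM in KO, against 110.4, 116 and 131 CPM in WT, so every KO library was below every WT library (-0.21 ± 0.09, SE, log2; edgeR adjusted p = 0.829). Lin52, named after its values were seen, was also lower in every KO library than in every WT library (-0.31 ± 0.17, SE, log2). Of the 13 genes, 2 were thus lower in KO without overlap and 0 were higher without overlap. Rbl1, which encodes the pocket protein p107, had 91.8, 81.1 and 91.8 CPM in KO, against 75.9, 81.2 and 76.4 CPM in WT, with KO 2 inside the WT range (0.18 ± 0.08, SE, log2). Entry and exit regulators were higher in KO for 9 of 12 with a median of 0.12. Their groups did not overlap for 2 genes higher and 3 lower in KO, where 782 and 866 of all 17195 tested genes did so. The 3 lower, named after their values were seen, were Wee1, Ensa and Fzr1. Their log2 differences were -0.13 ± 0.09, -0.10 ± 0.05 and -0.14 ± 0.07 (SE). Mastl, the Greatwall kinase, whose pathway restrains a phosphatase during mitosis, had 31.9, 35.3 and 47.1 CPM in KO, against 28.6, 25.5 and 22.4 CPM in WT, without overlap (0.58 ± 0.19, SE, log2). Cdc25c, a phosphatase that activates Cdk1, had 16.2, 17.7 and 23.0 CPM in KO, against 14.8, 13.6 and 12.4 CPM in WT, also without overlap (0.48 ± 0.19, SE, log2). CDK inhibitors were higher in KO for 5 of 7 with a median of 0.08. Cdkn1c, which encodes p57, had 10.2, 28.8 and 36.8 CPM in KO, against 9.82, 14.0 and 9.25 CPM in WT, so KO 2 and KO 3 stood far above the other 4 libraries (1.19 ± 0.47, SE, log2). Cdkn2a was low throughout, with 0.383, 3.84 and 6.94 CPM in KO, against 2.01, 0 and 0.500 CPM in WT, and it overlapped.

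Genes of cohesin, the complex that holds sister chromatids together, and of its regulators were higher in KO for 8 of 10. Their median log2 difference was 0.08. Smc3, a core subunit, had 127, 118 and 139 CPM in KO, against 117, 115 and 124 CPM in WT, with overlap (0.11 ± 0.08, SE, log2). Stag1, a regulatory subunit, had 116, 107 and 124 CPM in KO, against 116, 103 and 98.0 CPM in WT, likewise with overlap (0.13 ± 0.09, SE, log2). DNA replication genes were higher in KO for 20 of 20 with a median of 0.30. Rrm2, a subunit of ribonucleotide reductase, had 33.3, 59.8 and 58.1 CPM in KO, against 28.5, 32.8 and 35.6 CPM in WT, so KO 1 stayed inside the WT range as in most mitotic genes (0.64 ± 0.24, SE, log2). Pola1, the catalytic subunit of DNA polymerase alpha, had 48.3, 41.5 and 54.6 CPM in KO, against 33.9, 37.6 and 37.1 CPM in WT, without overlap (0.41 ± 0.13, SE, log2).

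Reads of overlapping genes limit some of these values, since whether counting used the strand was not stated. Exons of 11 of the 47 mitotic genes overlap those of a counted gene on the opposite strand. Beside Kif20a, the largest shares of exon bases with such counted genes were 15.1% for Kif4 with Pdzd11, 13.4% for Ncapg with Lcorl, 12.5% for Ccna2 with Exosc9 and 11.1% for Prc1 with Rccd1. Ube2c shares 22.8% of its exon bases with Tnnc2, a gene on the opposite strand that was not counted. Lcorl and Rccd1 had log2 differences of 0.38 ± 0.16 and 0.47 ± 0.32 (SE), on the same side as Ncapg and Prc1. Espl1, Cenpe, Knl1, Kif11 and Kif15 have no such overlap in the annotation.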

How the data were processed

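The deposited tables hold whole-number read counts per gene, per the file headers, without normalization. STAR, TopHat2, RSEM, HTSeq and DESeq2 and the builds mm10 and GRCm38 are named per the submitters' processing notes, with no role or version. Duplicate removal and strand use were not stated. No gene exceeded 0.973 counts per exon base in a library, and Plk1 (0.358) and Ccnb2 (0.336) averaged highest among the mitotic genes. Folds of genes with many counts per base, abundant cell type markers included, may be compressed, which was not tested. After the filterByExpr filter and TMM scaling, the quasi-likelihood F test of edgeR 4.0.16 was run in R 4.3.3 (robust, Benjamini-Hochberg over all tested genes, threshold 0.05), with DESeq2 1.42.0 and limma 3.58.1 as alternatives. CPM are TMM-scaled, and log2 CPM used a prior count of 2. Gene positions and exon lengths came from GENCODE vM21, and copies were sought at 95% identity over 300 bases. The genes described, the lists and the alternatives were chosen with earlier results of these data known. Values in all libraries are given for the gene of highest level per kilobase and that of smallest p in each role, and for the 2 of smallest p in each further list, of which 1 gene is not reported here. Aurka, Ndc80, Knl1 and Smc2 were added after their values were seen. Replicates differed beyond counting noise (chi-square per degree of freedom 5.58 to 23.8), and intervals cover these libraries only.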

Additional observations from a re-analysis of the deposited data

How the results depend on the processing

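The count of mitotic genes higher in KO was 47 of 47 with DESeq2 size factors, with total counts, with no filter on low counts, with a mean of at least 50 counts, with the exon length trend removed, with the Xist status as a covariate, in DESeq2 and limma-voom, and without any replicate in turn. It was 26 within the Y-linked libraries. The median log2 difference ran from 0.22 without KO replicate 3 to 0.41 without KO replicate 1, and was 0.00445 within the Y-linked and 0.53 within the Xist-high libraries; the cause was not tested. DESeq2 called 18 genes in all, against 0 in edgeR, and none of the 47. Without KO replicate 1 the lowest edgeR adjusted p of the 47 was 0.0837, and no gene was called with any replicate left out. With the replicate number as a block, edgeR called 0 genes, 47 of 47 were higher and the median was 0.28. Same-numbered libraries correlated at -0.04, 0.21 and -0.23 in their deviations, so the numbers were not taken as pairs. For the 17 genes with values in every library by rule, all 255 alternative values from a test kept their direction and were not called, leaving out replicates included. Of their 34 values within a status, which have no test, 25 lay more than 1 SD from the full comparison and 7, all in the Y-linked libraries, were below 0. Log2 differences of 0.09 to 0.61 were not called after adjustment over all genes.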
